A study of Mus musculus with 6 samples.

Results

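The genes that make pigment in melanocytes were followed in whole mouse skin, as 10 members chosen by gene symbol, namely 3 pigment enzymes (Tyr, Tyrp1 and Dct), 2 proteins of the melanosome (Pmel and Mlana), 3 melanosome transporters (Slc45a2, Oca2 and Slc24a5) and 2 lineage regulators (Mitf and Mc1r). All 10 had a row among the 17564 genes of the deposited table. RNA came from back skin of wild-type C57BL/6 mice aged 8 weeks, in 2 groups of 3 samples. The SspA/HDM group was given 3 µg SspA, a protease of Staphylococcus aureus also called V8, and 10 µg house dust mite extract (HDM) on shaved and depilated skin. The same application followed 3 days later, and skin was collected 7 days after the first. The untreated group was shaved and depilated as well but received neither agent, and no source used here gives its day of collection. Whether each sample is its own animal is not stated, so every p-value reflects only the spread among the samples at hand, part or all of which may be technical. The reads behind the values numbered 5606959, 5821622 and 7545567 in SspA/HDM replicates 1 to 3 and 5770072, 4928245 and 5580401 in untreated replicates 1 to 3, so SspA/HDM replicate 3 was the deepest library.

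Melanocytes are the pigment cells of skin. In the haired back skin of the mouse they sit mainly in the hair follicles, where they build pigment inside organelles called melanosomes and hand it to the growing hair shaft. Mitf, a basic helix-loop-helix transcription factor, is the central regulator of the lineage and binds E-boxes in the promoters of pigment genes, while Mc1r, the receptor of melanocyte-stimulating hormone, acts upstream of it through cyclic AMP.

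Genes of pigment synthesis were higher in SspA/HDM skin, whereas Mitf was not called. Of the 10 members, 8 rose and none fell (limma on log2 of scaled reads + 1, adjusted p under 0.05 over 15534 genes tested). Among all genes tested, 9.26% were called higher and 7.23% lower. The members were chosen with earlier results of these data known, so the count is a description only. For 9 of the 10 members all SspA/HDM libraries lay above all untreated ones, which held for 21.0% of the 17564 genes in the table and for 21.7% of those tested, and the opposite held for 15.6% of those tested. At an unadjusted p under 0.05 no member was lower, and edgeR, DESeq2 and limma-voom called none lower either. Oca2 did not pass the filter on low counts, and Mitf was tested and did not pass. Mlana, Slc45a2 and Mc1r reached the filter's minimum only in the SspA/HDM libraries, so their place among the genes tested already required a difference. In bulk skin, more cells of a type and more RNA per cell cannot be told apart.

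**Figure D1:**
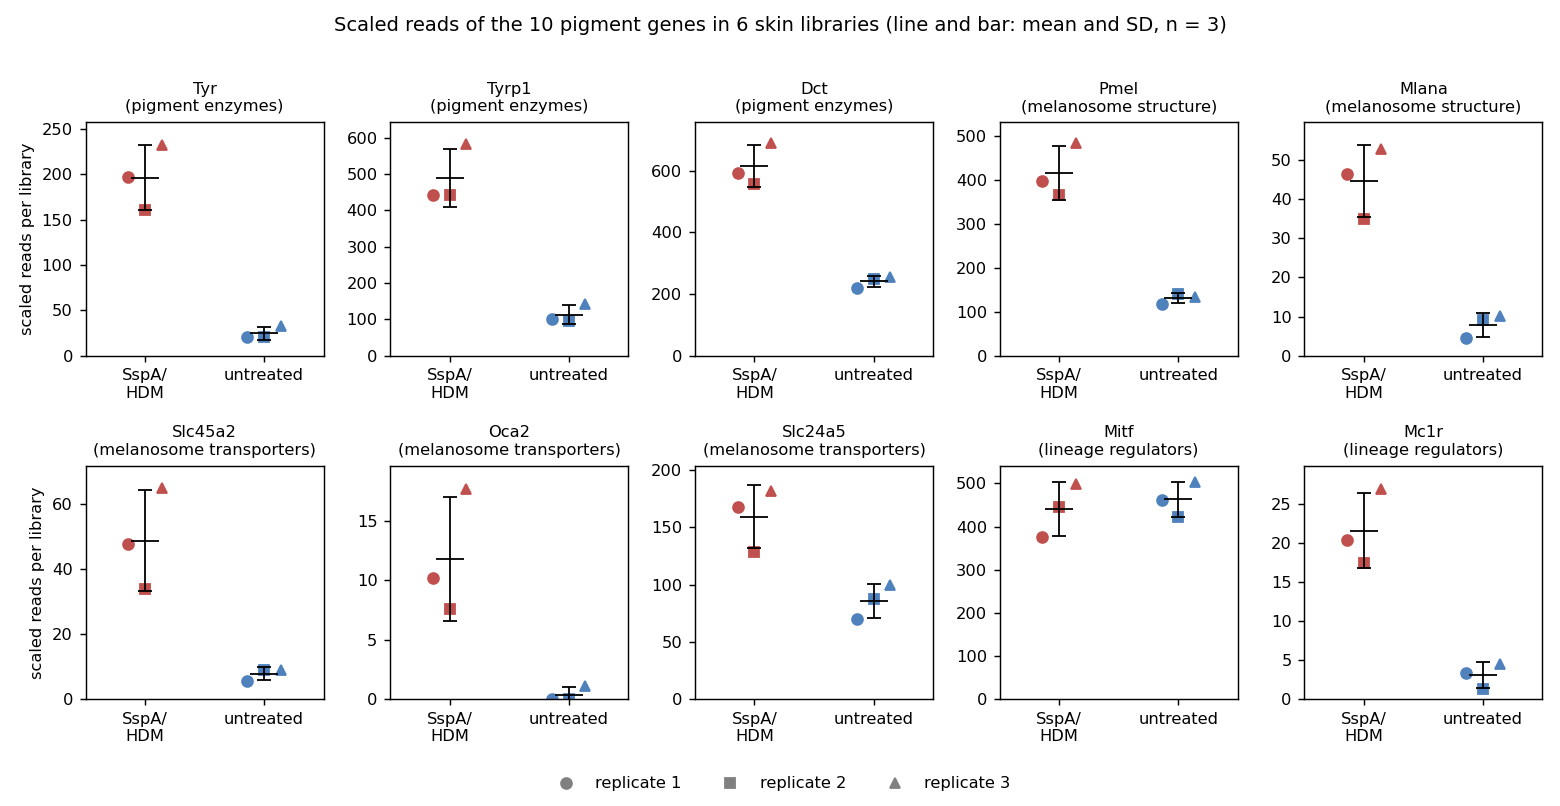
Scaled reads (vertical axes, each starting at 0) of the 10 pigment genes, with SspA/HDM libraries on the left and untreated libraries on the right of each panel. Symbols are replicates, and the line and bar are the mean and SD of 3 libraries. The groups overlap for Mitf and are apart for the other 9 genes.

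Tyr, Tyrp1 and Dct encode related enzymes of melanin synthesis. Tyrosinase, the product of Tyr, carries out the first and rate-limiting step. Tyr (mm10 chromosome 7, 87424771 to 87493512, minus strand) had 197, 160.1 and 232 scaled reads in SspA/HDM replicates 1 to 3, against 20.9, 20.6 and 33.0 in untreated replicates 1 to 3. Every SspA/HDM library lay above every untreated one. The mean was 196 ± 35.9 scaled reads in SspA/HDM skin and 24.8 ± 7.06 in untreated skin (SD, n = 3 each), a log2 fold change of 2.95 ± 0.24 SE with adjusted p = 8.22e-04 by limma. Among the 15534 genes tested, 80 had a log2 fold change at least as high as that of Tyr, itself included.

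Tyrp1 (chromosome 4, 80834213 to 80851736, plus strand), whose product acts late in the synthesis of black-brown eumelanin, had 442, 443 and 582 scaled reads in SspA/HDM replicates 1 to 3 and 101, 95.2 and 142 in untreated replicates 1 to 3. The groups were apart, with a log2 fold change of 2.12 ± 0.18 SE (adjusted p = 8.22e-04, limma). Dct (chromosome 14, 118012790 to 118052246, minus strand), dopachrome tautomerase, which is also a mark of unpigmented melanocyte precursors, had 594, 558 and 691 scaled reads in SspA/HDM skin and 219.8, 249.6 and 253 in untreated skin. Its log2 fold change was 1.34 ± 0.11 SE (adjusted p = 8.22e-04, limma). The 95% intervals of the log2 fold changes were 2.41 to 3.50 for Tyr, 1.72 to 2.52 for Tyrp1 and 1.10 to 1.59 for Dct, so the intervals of Tyr and Dct did not meet.

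The stretch before the start site is shown for the 3 enzymes because all of them hold TCATGTG. This motif is part of the M-box, the E-box form through which Mitf is known to act on pigment promoters. The flanking bases of the M-box were not searched. Sequences are from RefSeq on GRCm38.p6, 5′ to 3′ on the strand of the gene, and capitals mark TCATGTG or its reverse complement CACATGA.
Tyr (chr7:87493513-87493762, minus strand): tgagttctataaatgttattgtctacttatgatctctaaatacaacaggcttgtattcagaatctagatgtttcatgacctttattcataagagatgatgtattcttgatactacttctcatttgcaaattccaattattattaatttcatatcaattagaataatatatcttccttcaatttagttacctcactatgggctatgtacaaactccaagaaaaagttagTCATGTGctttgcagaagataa
Tyrp1 (chr4:80833963-80834212, plus strand): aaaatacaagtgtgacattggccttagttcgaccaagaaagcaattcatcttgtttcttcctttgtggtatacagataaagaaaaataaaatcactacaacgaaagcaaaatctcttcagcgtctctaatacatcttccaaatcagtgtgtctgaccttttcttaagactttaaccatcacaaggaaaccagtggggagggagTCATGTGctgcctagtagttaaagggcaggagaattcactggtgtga
Dct (chr14:118052247-118052496, minus strand): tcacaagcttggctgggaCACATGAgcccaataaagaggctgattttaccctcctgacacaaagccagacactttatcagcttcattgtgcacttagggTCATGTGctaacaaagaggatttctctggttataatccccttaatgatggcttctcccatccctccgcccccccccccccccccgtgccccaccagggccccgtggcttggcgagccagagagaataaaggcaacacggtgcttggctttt
The RefSeq promoter table has windows of 300 bases, from 250 before to 50 after each start, for 7 of the members, and Pmel, Mlana and Slc45a2 have no entry in it. TCATGTG, searched on both strands, occurred in 5 of the 9 windows of these 7 genes (Mitf has 3), each in a different gene, and in 3.77% of all 32851 windows. It began 22 bases before the start of Tyr and 47 before that of Tyrp1. In Dct it began 151 bases before the start, and a copy on the opposite strand lay 232 bases before. The core CATGTG within it occurred in 6 of the 9 windows and in 14.2% of all windows, while the palindrome CACGTG, which Mitf also binds, was in none of the members' windows and in 7.15% of all. A match is a description of these letters and not evidence of binding.

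The melanosome proteins rose as well. Pmel (chromosome 10, 128706258 to 128720238), which forms the fibrils on which melanin is laid down, had 398, 366 and 483 scaled reads in SspA/HDM replicates 1 to 3, against 119, 140.2 and 134 in untreated replicates 1 to 3. This was a log2 fold change of 1.65 ± 0.13 SE (adjusted p = 8.22e-04, limma) with no overlap. The annotated exons of Pmel share 105 bases with Dgka on the opposite strand, and Dgka itself had a log2 fold change of -0.12 (adjusted p = 0.283, limma). Mlana (chromosome 19, 29697941 to 29708306), a small membrane protein of early melanosomes, had 46.4, 34.9 and 52.9 scaled reads in SspA/HDM skin and 4.40, 9.01 and 10.2 in untreated skin. Its log2 fold change was 2.41 ± 0.36 SE (adjusted p = 0.0051, limma), from 136 reads in the SspA/HDM group and 20 in the untreated group.

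The transporters set the ion content and acidity of the melanosome and differed among themselves in the size of the change. Slc45a2 (chromosome 15, 11000721 to 11029233) had 47.5, 33.8 and 64.7 scaled reads in SspA/HDM replicates 1 to 3 and 5.49, 9.01 and 9.09 in untreated replicates 1 to 3, a log2 fold change of 2.47 ± 0.34 SE (adjusted p = 0.0042, limma). Slc24a5 (chromosome 2, 125068127 to 125088677), a potassium-dependent sodium-calcium exchanger, had 167, 129 and 181 scaled reads in SspA/HDM skin and 70.3, 87.5 and 99.98 in untreated skin. The groups did not overlap, and the log2 fold change of 0.88 ± 0.19 SE (95% interval 0.44 to 1.32, adjusted p = 0.0182, limma) was the lowest of the 8 called members. Slc24a5 was not called without SspA/HDM replicate 1 (adjusted p = 0.0587, limma) or without untreated replicate 1 (adjusted p = 0.0639, limma). Of the 1954 annotated exon bases of Slc24a5, 921 are shared with Myef2 on the opposite strand. Myef2 had 224, 188 and 233 scaled reads in SspA/HDM skin and 114, 148 and 177 in untreated skin (log2 fold change 0.57, adjusted p = 0.0586, limma). The library kit keeps strand, per the labels' protocols, but whether the counting used it is not given in the sources used here, and without it reads of the pair cannot be told apart.

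Oca2 (chromosome 7, 56239759 to 56536518), which regulates melanosomal pH, had 9, 7 and 21 reads in SspA/HDM replicates 1 to 3, against 0, 0 and 1 in untreated replicates 1 to 3. The SspA/HDM group held 37 reads and the untreated group 1, a ratio of 31.7 per read counted over all genes (exact 95% counting interval 5.35 to 1287). The size of the Oca2 difference is therefore poorly fixed, and the authors' deposited table gives it a log2 fold change of 4.78 with adjusted p = 0.0115. That table calls 9 of the 10 members higher, where it calls 7.26% of all 17564 genes higher and 7.56% lower, and it gives Mitf a log2 fold change of -0.11 with adjusted p = 0.733.

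Of the 2 regulators, Mc1r was called higher, though it passed the filter only through the SspA/HDM group, and Mitf was not called. Mitf (chromosome 6, 97807058 to 98021358, plus strand) had 375, 447 and 499 scaled reads in SspA/HDM replicates 1 to 3, against 463, 423 and 504.4 in untreated replicates 1 to 3. These ranges overlap, and the log2 fold change was -0.08 ± 0.12 SE (adjusted p = 0.70, limma). Its 95% interval of -0.35 to 0.19 lies below the intervals of the other 8 members tested. Mitf has several start sites, used in different cell types, and the table has a single row for it, which begins at the start farthest upstream. Reads of the melanocyte form, which starts at the site farthest downstream, and of the other forms are therefore not separated. Mast cells and macrophages express Mitf too.

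Mc1r (chromosome 8, 123407082 to 123410744) had 20.4, 17.4 and 26.9 scaled reads in SspA/HDM replicates 1 to 3, against 3.30, 1.29 and 4.54 in untreated replicates 1 to 3. Its log2 fold change was 2.55 ± 0.43 SE (adjusted p = 0.0075, limma), from 66 reads in the SspA/HDM group and 8 in the untreated group. Per read counted over all genes this was a ratio of 7.08 (exact 95% counting interval 3.39 to 17.1), beside 8.00 (6.18 to 10.5) for Tyr and 4.40 (3.87 to 5.00) for Tyrp1. These intervals cover counting error only. The annotated exons of Mc1r share 653 bases with Gm38092, an unvetted transcript model on the opposite strand.

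The last 100 bases before the start are shown for Mc1r and Slc24a5, the other members with TCATGTG on either strand, and for the melanocyte start of Mitf, where no copy was found.
Mc1r (chr8:123406982-123407081, plus strand): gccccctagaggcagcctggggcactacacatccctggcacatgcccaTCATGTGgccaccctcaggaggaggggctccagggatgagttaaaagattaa
Slc24a5 (chr2:125068027-125068126, plus strand): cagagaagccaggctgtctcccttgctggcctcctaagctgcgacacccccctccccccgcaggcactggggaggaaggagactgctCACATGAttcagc
Mitf (chr6:97991683-97991782, plus strand): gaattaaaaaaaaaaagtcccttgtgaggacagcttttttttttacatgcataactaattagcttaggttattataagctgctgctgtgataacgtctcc
In Mc1r the motif began 52 bases before the start, and in Slc24a5 the copy on the opposite strand began 13 bases before it. None of the 3 Mitf windows held it, and neither did that of Oca2. Members with the motif therefore ranged from Slc24a5, with the smallest called change, to Tyr, with the largest among the members tested.

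**Figure D2:**
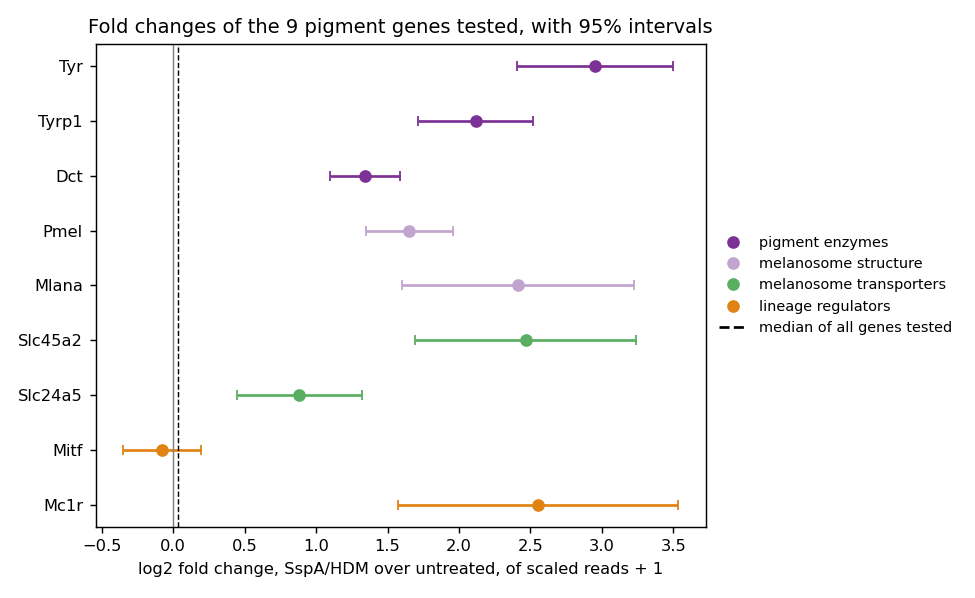
Log2 fold change of SspA/HDM over untreated skin (horizontal axis, of scaled reads + 1) with 95% intervals from limma for the 9 pigment genes tested, coloured by role. Mitf spans 0, Mc1r lies at 2.55 and Tyr at 2.95, and the dashed line is the median of all genes tested (0.03).

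Setting enzymes against regulators within each library gave different answers for Mitf and for Mc1r. Tyr lay below Mitf by 0.93, 1.47 and 1.10 log2 units in SspA/HDM replicates 1 to 3, a difference of -1.17 ± 0.28, and it averaged -4.20 ± 0.27 against Mitf in untreated skin (SD, n = 3 each). The shift between groups was 3.03 log2 units for Tyr against Mitf, 2.20 for Tyrp1 against Mitf and 1.42 for Dct against Mitf. In all 3 pairs the groups did not overlap, and each gave p = 0.1 in an exact two-sided permutation test, the smallest p that 3 samples against 3 allow (adjusted p = 0.15 over the 6 pairs). Against Mc1r the shifts were 0.40 for Tyr (exact permutation p = 0.4), -0.43 for Tyrp1 (exact permutation p = 0.2) and -1.21 for Dct (exact permutation p = 0.1). With a pseudocount of 5 these shifts were 1.04 for Tyr, 0.35 for Tyrp1 and -0.40 for Dct, so their sizes, and for Tyrp1 the direction, rest on the pseudocount. With a pseudocount of 0.5 the shift of Tyr was 0.24. Without untreated replicate 1 the shift of Tyr against Mc1r was 0.21, and without untreated replicate 2 the shifts were 0.65 for Tyr and -0.18 for Tyrp1. The enzymes were thus not set apart from Mc1r in a single direction.

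Per kilobase of transcript, Dct had the highest level of the 10 members in both groups. It reached 273 ± 30.5 scaled reads per kilobase in SspA/HDM skin and 107 ± 8.17 in untreated skin. In SspA/HDM skin Pmel (196 ± 28.6) and Tyrp1 (178 ± 29.4) followed, and their ranges overlapped. Mlana (98.5 ± 20.2), Mitf (90.3 ± 12.7) and Slc24a5 (82.0 ± 14.1) came next with overlapping ranges, then Tyr (32.5 ± 5.95), Slc45a2 (16.4 ± 5.21), Mc1r (5.89 ± 1.32) and Oca2 (3.80 ± 1.68), of which Mc1r and Oca2 overlapped. In untreated skin Mitf (95.01 ± 8.32) was next to Dct and overlapped it, ahead of Pmel (61.9 ± 5.25), Slc24a5 (44.3 ± 7.68) and Tyrp1 (41.1 ± 9.29), the last pair with overlapping ranges. Mlana (17.4 ± 6.77), Tyr (4.11 ± 1.17), Slc45a2 (2.64 ± 0.69), Mc1r (0.83 ± 0.45) and Oca2 (0.12 ± 0.21) were lower still, and Mc1r and Oca2 overlapped. The table lists 454 bases for Mlana, where the matching annotated transcript has 906, so the per-kilobase level of Mlana depends on which is used.

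As a share of the summed per-kilobase signal of the 10 genes, Mitf made up 9.30% ± 1.22 in SspA/HDM skin and 25.5% ± 2.39 in untreated skin. Tyr made up 3.32% ± 0.21 in SspA/HDM skin and 1.09% ± 0.20 in untreated skin, and Tyrp1 18.2% ± 0.88 and 10.9% ± 1.55. Dct kept nearly the same share, 28.0% ± 0.85 in SspA/HDM skin and 28.6% ± 1.44 in untreated skin, with overlapping libraries (SD, n = 3 each). These shares are descriptions, since a gain of some members lowers the share of the others. Dct reached 0.365 reads per base of transcript, the most of any member. With reads estimated from filled positions of the transcript its log2 fold change was 1.49, against 1.34 in the main fit. Its share under that estimate was not computed.

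**Figure D3:**
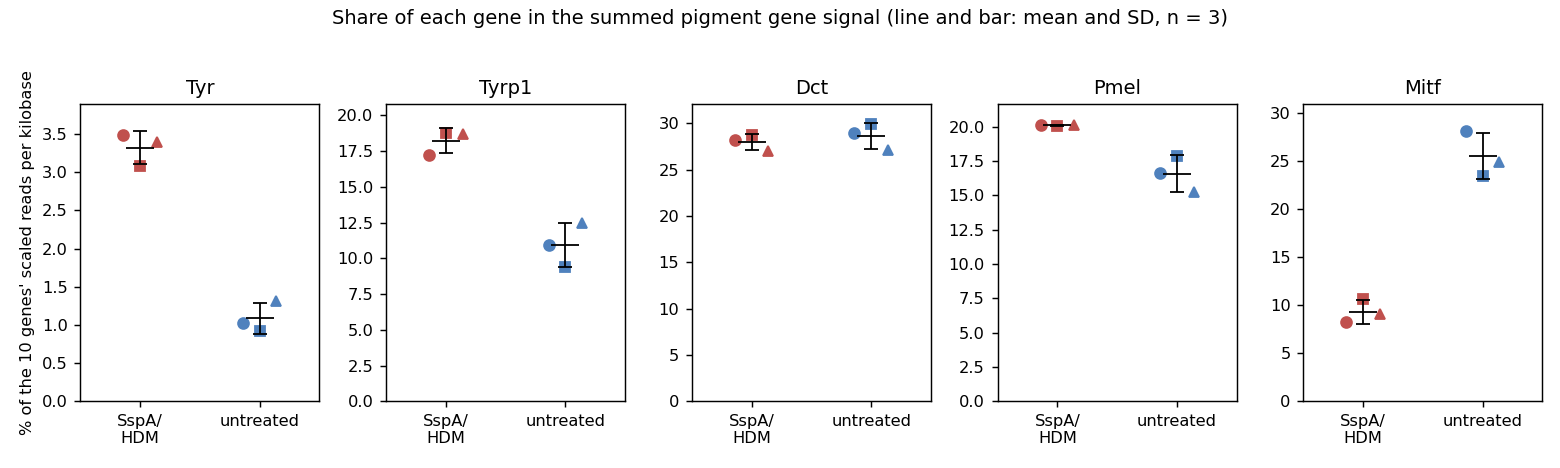
Share of Tyr, Tyrp1, Dct, Pmel and Mitf in the summed scaled reads per kilobase of the 10 pigment genes (vertical axes in percent, starting at 0), with SspA/HDM libraries left of untreated ones. Symbols are replicates, and the line and bar are the mean and SD of 3 libraries. Mitf is lower in SspA/HDM skin (9.30% against 25.5%), while the Dct libraries overlap.

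Within the SspA/HDM group most members had the same order of libraries. Replicate 3 was the highest of the 3 SspA/HDM libraries for all 10 members, where it was the highest for 40.4% of all genes tested and for 27.8% of those called higher. Replicate 2 was the lowest for 8 members, the exceptions being Tyrp1 and Mitf, and 17.6% of all genes tested had replicate 3 highest and replicate 2 lowest. The sum of the markers of the hair matrix and inner root sheath had the same order, with 3002, 1457 and 5967 scaled reads in SspA/HDM replicates 1 to 3. It was 829, 772 and 815 in untreated replicates 1 to 3. Not every marker had this order, as Foxn1 had 280, 216 and 204 scaled reads in SspA/HDM replicates 1 to 3. Of the 22 entries of that list 20 had a row, 11 were tested and 7 rose, where 9.26% of all genes tested were called higher. Of the 11 tested, limma-voom called 2 higher. Of these 7, Krt25, Krt27, Krt35 and Krt73 reached the filter's minimum in the 3 libraries it asks for only through the SspA/HDM group, so their place among the genes tested already required a difference, and the count supports nothing by itself. Without SspA/HDM replicate 2 the count was 10 of 12 tested. Krt25 (6.90, adjusted p = 8.76e-04, limma), a keratin of the inner root sheath, was the largest of them, and the others that rose were Krt27, Krt28, Krt35, Krt71, Krt73 and Tchh, of which Krt28 was not called without SspA/HDM replicate 1 (adjusted p = 0.0508, limma). The other markers tested, Msx2, Foxn1, Hoxc13 and Dlx3, were not called (adjusted p = 0.0865, 0.105, 0.183 and 0.219, limma). Krt72 and Krt81 had no read in untreated skin. Between SspA/HDM replicates 2 and 3 the summed hair markers differed more than the enzymes, which summed to 1161 and 1505 scaled reads there. The part of hair growth stage or of the number of follicles in the pigment gene differences was not tested.

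**Figure D4:**
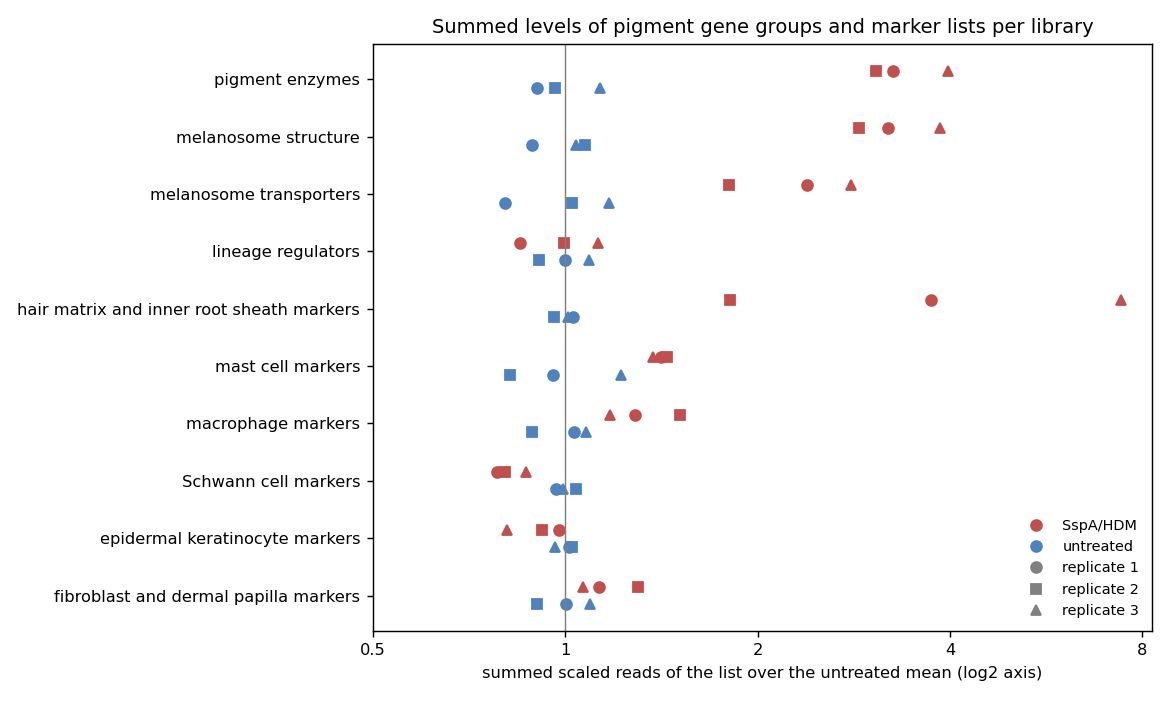
Summed scaled reads of the 4 pigment gene groups and of 6 marker lists in each library, divided by the mean of the untreated libraries (horizontal log2 axis), with SspA/HDM libraries drawn above untreated ones. Enzymes lie between 3.07 and 3.98 in SspA/HDM skin and hair markers between 1.81 and 7.41, while the 2 regulators, of which Mitf supplies nearly all reads, overlap between groups.

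Other cell types of skin were looked at by their own markers. For scale, 9.26% of all genes tested were called higher and 7.23% lower. Schwann cells, which share Sox10 with melanocytes, had 3 of 16 tested markers lower, Prx among them, and the list summed to between 4973 and 5512 scaled reads in SspA/HDM skin and between 6134 and 6605 in untreated skin. Of 13 tested mast cell markers 5 rose, namely Fcer1a (which passed the filter only through the SspA/HDM group), Hdc, Kit, Srgn and Tpsb2, with sums of 3637 to 3828 in SspA/HDM skin and 2170 to 3246 in untreated skin. That count was 3 without SspA/HDM replicate 1 or 3, 1 without SspA/HDM replicate 2, 2 without untreated replicate 1 or 2, and 2 with limma-voom. TMM scaling gave 3 higher and 1 lower. Mrgprb2 was lower in every SspA/HDM library than in any untreated one (-0.96, adjusted p = 0.0521, limma). Mcpt4 (0.08, adjusted p = 0.636, limma) and Cpa3 (0.27, adjusted p = 0.318, limma) did not pass. Of 15 tested macrophage markers 4 rose, among them Cd68, Gpnmb and Trem2, with sums of 9584 to 12341 in SspA/HDM skin and 7242 to 8817 in untreated skin. The count was 8 without SspA/HDM replicate 3 and 5 without untreated replicate 3. It was 3 without SspA/HDM replicate 2 or untreated replicate 1 or 2. Gpnmb is counted again below among other melanocyte and melanosome genes. Of 12 tested epidermal keratinocyte markers 3 were lower, namely Col17a1, Lor and Sbsn, with sums of 17361 to 20933 in SspA/HDM skin and 20611 to 21928 in untreated skin. The lowest of these sums was that of SspA/HDM replicate 3, the deepest library. Krt14 had 1373 reads there, against 1496 and 1451 in SspA/HDM replicates 1 and 2. Krt14 reached 0.907 reads per base of transcript in its highest library, and Krt1 reached 0.901. Whether only 1 read per position was counted is not given in the sources used here. If so, the sums and fold changes of such abundant genes are compressed. Of 13 tested fibroblast and dermal papilla markers Sox18 rose (adjusted p = 0.03, limma), a call lost without SspA/HDM replicate 1, 2 or 3 (adjusted p = 0.0745, 0.073 and 0.0603) and without untreated replicate 1 or 3 (adjusted p = 0.0958 and 0.0807). No list apart from the hair list held a marker with 0 reads in all untreated libraries. The part of these cells in the level of Mitf was not tested.

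Other factors and signals of the melanocyte lineage had a median log2 fold change of 0.02, against 0.03 over all genes tested. Of 20 entries 17 were tested and 4 rose, where 9.26% of all genes tested were called higher. edgeR and limma-voom each called 1 higher, while DESeq2 called 5 higher and 2 lower. Kitl, the ligand that keratinocytes offer to melanocytes, had 900.1, 884 and 925 scaled reads in SspA/HDM replicates 1 to 3, against 699.9, 688 and 709 in untreated replicates 1 to 3. Its log2 fold change was 0.37 ± 0.07 SE (adjusted p = 0.0093, limma), and it was the only gene of the 4 that limma called with every library left out in turn. Its receptor Kit, which mast cells carry too, had 315, 414 and 459.6 scaled reads in SspA/HDM skin and 225, 199 and 319 in untreated skin, so the groups overlapped (0.69 ± 0.19 SE, adjusted p = 0.0424, limma). Kit was not called without SspA/HDM replicate 2 or 3 (adjusted p = 0.125 and 0.0911, limma) or untreated replicate 1 or 2 (adjusted p = 0.125 and 0.129, limma). The endothelin receptor gene Ednrb (0.55, adjusted p = 0.0423, limma) was not called without SspA/HDM replicate 2 or 3 (0.143 and 0.0745) or untreated replicate 2 or 3 (0.129 and 0.108). The transcription factor gene Tfap2a (0.26, adjusted p = 0.0474, limma) was lost with every single library left out (adjusted p = 0.0619 to 0.125). Sox10 (-0.12 ± 0.14 SE, adjusted p = 0.617, limma) and Pax3 (0.56 ± 0.28 SE, adjusted p = 0.206, limma), the factors that act on Mitf in the lineage, did not pass. Pomc, the source of melanocyte-stimulating hormone, had 9 reads in the SspA/HDM group and 4 in the untreated group, and Asip was not analysed here.

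Among 21 other melanocyte and melanosome genes, 17 were tested, 6 rose and 1 fell, with a median log2 fold change of 0.25. Over all genes tested, 9.26% were called higher and 7.23% lower. Trpm1, a melanocyte channel gene, had 84.8, 68.6 and 181 scaled reads in SspA/HDM replicates 1 to 3, against 16.5, 15.4 and 18.2 in untreated replicates 1 to 3 (2.54 ± 0.35 SE, adjusted p = 0.004, limma). The cystine transporter gene Slc7a11 rose by 2.96 ± 0.20 SE (adjusted p = 3.91e-04, limma), with replicate 1 the highest SspA/HDM library at 1470.0 scaled reads, against 912 and 869.6 in replicates 2 and 3. Myo5a, the motor that moves melanosomes (0.75, adjusted p = 0.0053, limma), and Cdh3 (0.50, adjusted p = 0.0075, limma), an adhesion gene that hair matrix keratinocytes also express, rose. Gpnmb (0.60, adjusted p = 0.026, limma) and Tpcn2 (0.56, adjusted p = 0.0216, limma) rose over the 6 libraries, and Syngr1 fell (-0.71, adjusted p = 0.0368, limma). Gpnmb was not called without SspA/HDM replicate 2 or untreated replicate 1 or 2 (adjusted p = 0.0873, 0.0656 and 0.0571). Tpcn2 was not called without SspA/HDM replicate 1 or 2 or untreated replicate 1 or 2 (adjusted p = 0.0674, 0.083, 0.0649 and 0.0635), nor was Syngr1 (adjusted p = 0.0971, 0.124, 0.132 and 0.0931). Gpr143, a receptor of the melanosome membrane, had 24 reads in the SspA/HDM group and 1 in the untreated group, a ratio of 20.6 (exact 95% counting interval 3.36 to 847).

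The complexes that sort cargo to melanosomes and to related organelles in many cell types lay close to their untreated levels. Of 23 tested genes of these complexes, limma called none, and at an unadjusted p under 0.05 Nbeal2 alone was higher (0.26, adjusted p = 0.0835, limma). edgeR, DESeq2 and limma-voom called none either. The log2 fold changes of the 23 ran from -0.14 to 0.26.

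The genes outside the group whose 6 values lay nearest to the mean pattern of Tyr, Tyrp1 and Dct were Mex3a, Tcf23, Lrrc4, Adamts17, Cpne4, Kcnv1, Cxcr6 and Icos. Likeness was the Euclidean distance over the 6 libraries between log2 values set to their untreated mean, and it ran from 0.365 for Mex3a to 0.611 for Icos. Among members it was 0.156 for Tyrp1, 0.805 for Slc45a2, 0.813 for Mlana, 0.907 for Pmel, 1.03 for Mc1r, 2.05 for Oca2, 2.19 for Slc24a5 and 3.86 for Mitf. Tyr (1.43) and Dct (1.41), on either side of the mean that they help to define, lay farther from it than all 8 outside genes. Mex3a, which encodes an RNA-binding protein, averaged 380.2 ± 100.1 scaled reads in SspA/HDM skin and 90.3 ± 16.7 in untreated skin. Cxcr6 and Icos are genes of activated T cells, so nearness in this measure says only that the size and spread of the difference were alike.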

How the data were processed

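Stranded mRNA libraries of whole skin were made from 6 samples, per the labels' protocols. The submitters' processing notes name STAR, bcl2fastq 2.20.0.422, DESeq2 and build mm10. The sources used here give neither the counter nor its filters. The deposited values are a scaled signal per gene, and 100% of them lay within 0.1 of a whole multiple of the value of 1 read, from which reads were recovered. Beside these stand log2 fold changes deposited by the authors. Their p-values and adjusted p-values were deposited too. Its comparison is named untreated against SspA/HDM, and a positive fold change there means higher in SspA/HDM skin.

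Genes passing filterByExpr of edgeR 4.0.16 on recovered reads (minimum count 10, minimum total 15) went into limma 3.58.1 (R 4.3.3) as log2(value + 1), with the spread allowed a trend, no term but group, and Benjamini-Hochberg adjustment. Fold changes on this scale understate the change of low genes. Intervals of read ratios are exact and cover counting error only. Enzyme and regulator pairs were compared by exact permutation of the samples. Exon overlaps came from GENCODE vM21 (GRCm38), the same assembly as mm10. Figures were drawn with matplotlib 3.10.9.

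Alternatives were DESeq2 1.42.0, edgeR, limma-voom, TMM and RLE scaling, pseudocounts of 0.5 and 5, other filters, adjusted p under 0.01, no trend, the replicate number as a block, each library left out, and the authors' deposited comparison. Leaving out the deepest and the shallowest library together, estimating reads from filled positions of the transcript, and running the gene lists under all of these were added after seeing the data. The members and lists were chosen with earlier results of these data known. Named genes were all members, Kit, Kitl, Sox10, Ednrb, Asip, Pomc, Pax3 and Gpr143, of each other list up to 4 with the smallest p and all called where 5 or fewer were called in a direction, and the 8 tested genes nearest in pattern, predicted genes left out. All 7 hair markers that rose, and Myef2, Dgka and Gm38092, were named after their values were seen. So were Msx2, Foxn1, Hoxc13, Dlx3, Mrgprb2, Mcpt4 and Cpa3. Some genes that this rule names are not reported here, and some genes were not analysed here.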

Additional observations from a re-analysis of the deposited data

How the results depend on the processing

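Of the 10 members, 7 to 9 were called higher and none lower under each of the 21 alternatives. Tyr, Tyrp1, Dct, Pmel, Mlana, Slc45a2 and Mc1r were called under all 21, with adjusted p up to 0.0331 for Mc1r (limma and the other tools named), and Slc24a5 was not called at adjusted p under 0.01 or without SspA/HDM or untreated replicate 1. Mlana, Slc45a2 and Mc1r reached the filter's minimum only in the SspA/HDM libraries, and the alternatives draw on the same libraries. Mitf was called under none of the alternatives, with log2 fold changes from -0.24 to 0.03. Leaving out single libraries gave Mitf -0.17 to 0.0303, and the 0.0303, without SspA/HDM replicate 1, had the opposite sign. In the 4 libraries of like depth 8 members were called higher, and with reads estimated from filled positions the Dct log2 fold change was 1.49. Of 66 recomputed enzyme and regulator shifts 65 kept their direction, and that of Tyrp1 against Mc1r was 0.35 with a pseudocount of 5. Over all genes, calls moved to 922 higher and 640 lower without a trend in the spread and to 362 and 288 at adjusted p under 0.01. Leaving out single libraries gave 610 to 1420 higher and 529 to 1344 lower, the fewest being 610 and 529 when SspA/HDM replicate 2 was dropped. Dropping SspA/HDM replicate 1 gave 859 and 623, dropping untreated replicate 1 gave 691 and 545, and dropping untreated replicate 2 gave 761 and 647. The cause was not tested.

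Between same-numbered libraries the correlations of deviations were -0.085, -0.055 and 0.054. Between SspA/HDM replicate 1 and untreated replicate 2 the correlation was 0.146. These values show no pairing by replicate number, but with 3 libraries per group they cannot exclude one. With the replicate block 8 members were called higher, and over all genes 1348 higher and 1096 lower. Mlana, Slc45a2, Mc1r and Oca2 had at most 20 reads in the untreated group, which limits how well their fold changes are known.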
